A study of Mus musculus with 6 samples.

Results

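The genes for retinoic acid synthesis and response were examined in immortalized mouse cardiosphere-derived cells (CDCs) before and after induction with 5-azacytidine, a nucleoside that inhibits DNA methylation. The 9 genes were Rdh10, Dhrs3, Aldh1a1, Aldh1a2, Aldh1a3, Crabp1, Crabp2, Cyp26b1 and Rarb, 9 of 54532 genes in the deposited table. They were found by gene symbol and had been chosen on measured values of this same comparison, so their calls in the fit across all genes are given as a description and are no independent test of them. All cells were CDCs of C57BL/6 mice, a type of cell that grows out of heart explants. By the methods of the study, the explants were pieces of epicardium peeled from the heart ventricle. All cells carried a human telomerase (hTERT) transgene delivered by lentivirus with puromycin selection. Control libraries came from these cells at passage 30. Induced libraries came from cells of passage 30 given 10 µM 5-azacytidine (5-aza) for 3 days and then kept for 4 weeks in IMDM with 2% serum, by the labels, while the methods of the study give another medium and duration. The medium and culture time of the sequenced control cells are not stated, so drug, serum and time in culture cannot be told apart. Each group had 3 libraries from separate samples of the same immortalized line, so p-values measure only the spread between these samples, which may be technical.

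Retinoic acid is made from vitamin A (retinol) in the cell. Retinol is oxidized reversibly to retinal, and retinal is oxidized irreversibly to retinoic acid, which binds nuclear receptors that act as pairs of a retinoic acid receptor (RAR) and a retinoid X receptor (RXR). Cellular binding proteins carry the acid within the cell, and cytochromes of the Cyp26 family clear it. In the heart, the epicardium is a known source of retinoic acid during development and after injury.

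Total counts were 19041133 to 19823369 reads per library. Each of the mesenchymal markers set for CDCs (Thy1, Eng, Ly6a, Pdgfra, Col1a1 and Col3a1) was well expressed. Their sum was 11237 to 11919 CPM (counts scaled to library size with TMM factors) in control and 11668 to 12297 CPM in induced libraries. Thy1, Eng and Col3a1 were called higher and Ly6a, Pdgfra and Col1a1 lower. Col1a1 and Col3a1 held 441338 and 202489 of 688203 control reads and moved in opposite directions (log2 fold changes -0.36 and 0.70). The near-equal sum thus does not mean that each gene was unchanged. Leukocyte markers were at 0 reads for 5 of 6 genes and the endothelial markers summed to under 1 CPM in every library. Of the cardiomyocyte markers, Tnnt2 held 778 of 872 control reads and 3310 of 3471 induced reads, and Myh6 and Nppa had 0 reads in control and 1 and 4 reads in induced libraries. The 7 epicardial or mesothelial markers summed to 678 to 709 CPM in control and 2202 to 2276 CPM in induced libraries. Most of their reads came from Upk3b and Lrrn4. These had 15065 and 16775 of 41100 control reads, and 53602 and 51583 of 126795 induced reads. Wt1, Tcf21, Upk3b, Msln and Lrrn4 were called higher, and Tbx18 and Krt19 lower. Over all tested genes, 64.8% were called, 32.6% higher and 32.2% lower.

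Aldh1a1 dominated the expression of the synthesis genes in both groups and was 5.72-fold higher after induction, while Aldh1a2 was 5.67-fold lower. The binding proteins Crabp1 and Crabp2 were also higher, from a few reads per library, and Rdh10 was 1.77-fold higher. Dhrs3 differed little. Aldh1a3, Cyp26b1 and Rarb were not past the threshold. Of the 9 genes, 5 were called higher and 1 lower in induced cells at an adjusted p of 0.05 by edgeR's quasi-likelihood test, in a comparison where 64.8% of 14246 tested genes were called, 32.6% higher and 32.2% lower. At 2-fold or more, 4 of the 9 were called, beside 17.1% of all tested genes. The 2 groups did not overlap for 5 genes with induced above control and 2 with control above induced, beside 68.6% of all tested genes in either direction. The median log2 fold change of the 9 was 0.19, and that of all tested genes was -0.01. All 9 passed the filter on low counts, but Crabp1 and Crabp2 reached its minimum of 10 reads only in induced libraries, and Aldh1a2 only in control libraries.

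**Figure D1:**
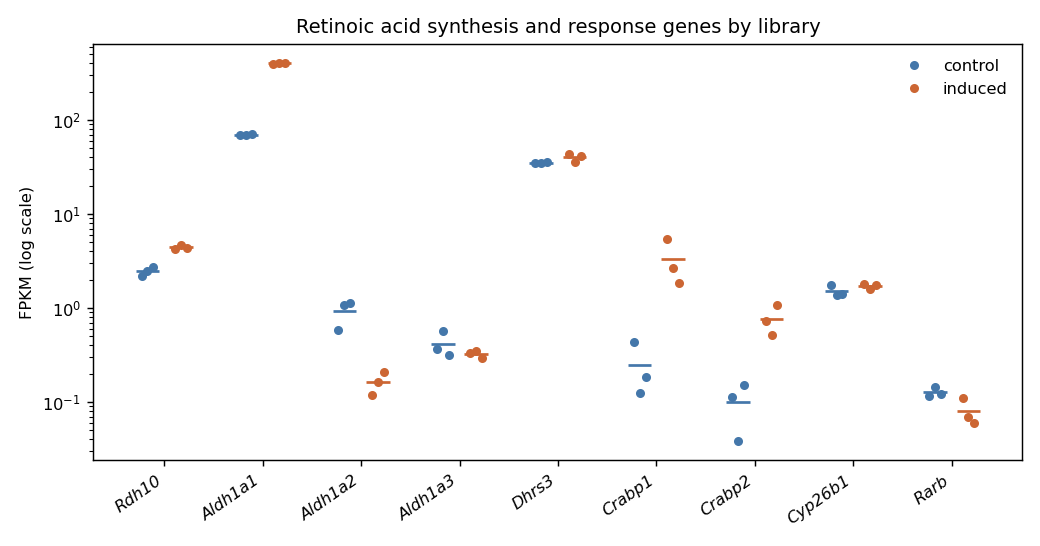
Levels of the 9 retinoic acid genes in FPKM on a log axis, by library (points, in replicate order) for 3 control and 3 induced samples, with the group mean as a line. Aldh1a1 rises from 69.7 to 402 FPKM while Aldh1a2 falls from 0.929 to 0.163 FPKM, and the points of Aldh1a3 and Cyp26b1 overlap between groups.

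The plot of levels by library orders the genes by their role, from retinol to receptor. Gene positions are those of the deposited table, for which the submitters' notes name the mm10 build. Rdh10 (ENSMUSG00000025921, chr1:16105774-16133734, plus strand) encodes the retinol dehydrogenase that makes retinal. It had 2.21, 2.48 and 2.75 FPKM (reads scaled to gene length and library depth, as deposited) in control libraries and 4.23, 4.69 and 4.38 FPKM in induced libraries. Every induced library lay above every control library, with means of 2.48 ± 0.270 and 4.43 ± 0.235 FPKM (SD, n = 3) and a log2 fold change of 0.83 (SE 0.10).

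Dhrs3 (ENSMUSG00000066026, chr4:144892827-144928209, plus strand) encodes the reductase that turns retinal back into retinol. Its levels were 35.1, 34.8 and 35.3 FPKM in control and 43.9, 35.5 and 41.3 FPKM in induced libraries. The groups did not overlap, but the second induced library was level with the controls. The difference of 0.19 on the log2 scale (SE 0.06) lost its call without control replicate 2 (log2 fold change 0.18) or without induced replicate 1 (0.12). Of Rdh10 and Dhrs3, Dhrs3 was the more abundant in both groups, at 35.1 ± 0.262 FPKM against 2.48 FPKM for Rdh10 in control and 40.3 ± 4.31 against 4.43 FPKM in induced cells (SD, n = 3). Further genes that interconvert retinol and retinal are counted below, and some of them had higher levels than Rdh10 in both groups.

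The Aldh1a enzymes carry out the irreversible step to retinoic acid. Aldh1a1 (ENSMUSG00000053279, chr19:20492715-20643462, plus strand) had 6747, 6827 and 7022 reads in control and 36836, 38088 and 38095 reads in induced libraries, or 69.7 ± 1.05 and 402 ± 4.59 FPKM (SD, n = 3). The groups were far apart and the libraries of each group lay close together, and the log2 fold change was 2.52 (SE 0.04). By mean FPKM, Aldh1a1 moved from rank 705 to rank 104 among the genes of the table. It took 0.0351% of all reads in control and 0.196% in induced cells, and 410 of the tested genes had a larger log2 fold change.

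Aldh1a2 (ENSMUSG00000013584, chr9:71215789-71296243, plus strand), the main retinoic acid enzyme of the early embryo and of the developing epicardium, was already low in control cells. It had 26, 48 and 52 reads in control libraries and 5, 7 and 9 reads in induced libraries. The groups did not overlap, with 0.929 ± 0.307 and 0.163 ± 0.0454 FPKM (SD, n = 3). The log2 fold change was -2.50 (SE 0.38), and the ratio of pooled reads, induced over control, was 0.169 with a 95% exact interval of 0.101 to 0.270. Such intervals account for counting error alone, as reads that carry no molecular identifier may be copies of the same molecule.

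Aldh1a3 (ENSMUSG00000015134, chr7:66390890-66427517, minus strand), the third retinal-oxidizing enzyme of the family, had 34, 52 and 29 reads in control and 29, 31 and 26 reads in induced libraries. The groups overlapped, and the log2 fold change was -0.36 (SE 0.27). Its mean levels were 0.416 ± 0.134 and 0.327 ± 0.0291 FPKM (SD, n = 3).

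Added per length, the 3 enzymes summed to 69.6, 71.3 and 72.2 FPKM in control and 397.0, 405 and 405 FPKM in induced libraries. Aldh1a1 made up nearly all of the sum in both groups, 98.1% ± 0.479 in control and 99.9% ± 0.00704 in induced cells (SD, n = 3). The share of Aldh1a2 was 1.30% ± 0.413 in control and 0.0403% ± 0.0109 in induced cells, and that of Aldh1a3 was 0.586% ± 0.188 and 0.0813% ± 0.00741. The opposite differences of Aldh1a1 and Aldh1a2 thus left the isozyme that led in control cells in the lead. The summed epicardial or mesothelial markers given above were higher in the same libraries as Aldh1a1 (5 of 7 higher, 2 lower, none at 0 reads). Over all tested genes, 64.8% were called, 32.6% higher and 32.2% lower. In bulk RNA more cells of a type and more RNA per cell cannot be told apart. The part of these markers in the difference of Aldh1a1 was not tested.

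Since 5-aza acts on the methylation of cytosines in CpG pairs, the promoters of the isozymes that differed are shown for their CpG content. DNA methylation was not measured here. RefSeq promoter windows of the GRCm38.p6 build, 250 bases before to 50 bases after an annotated start, were found for 6 of the 9 genes (9 windows). Rdh10, Aldh1a3 and Crabp2 had no such window. The 250 bases before the start are printed 5′ to 3′ on the coding strand with each CpG in capitals, for Aldh1a1 at chr19:20601718-20601967 (plus strand, inside the interval of the gene in the deposited table), for Aldh1a2 at chr9:71215539-71215788 (plus strand) and for Crabp1 at chr9:54764498-54764747 (plus strand).
Aldh1a1: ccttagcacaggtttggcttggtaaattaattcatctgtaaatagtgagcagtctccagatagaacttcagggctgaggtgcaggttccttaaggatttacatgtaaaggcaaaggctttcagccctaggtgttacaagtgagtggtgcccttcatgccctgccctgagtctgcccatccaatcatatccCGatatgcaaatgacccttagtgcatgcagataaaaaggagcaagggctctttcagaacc
Aldh1a2: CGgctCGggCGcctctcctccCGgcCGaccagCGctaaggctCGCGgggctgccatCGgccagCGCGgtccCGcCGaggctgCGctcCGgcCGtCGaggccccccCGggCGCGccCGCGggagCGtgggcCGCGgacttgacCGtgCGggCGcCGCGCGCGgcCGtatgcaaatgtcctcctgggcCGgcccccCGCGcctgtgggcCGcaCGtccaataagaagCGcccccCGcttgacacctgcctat
Crabp1: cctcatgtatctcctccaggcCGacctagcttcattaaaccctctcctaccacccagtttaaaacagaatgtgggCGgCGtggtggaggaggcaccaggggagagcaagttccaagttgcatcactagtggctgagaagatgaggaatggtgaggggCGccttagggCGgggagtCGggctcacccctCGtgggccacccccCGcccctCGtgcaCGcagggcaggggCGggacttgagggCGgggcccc
The stretch shown for Aldh1a1 held 1 CpG, that for Aldh1a2 held 40 and that for Crabp1 held 12.

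**Figure D2:**
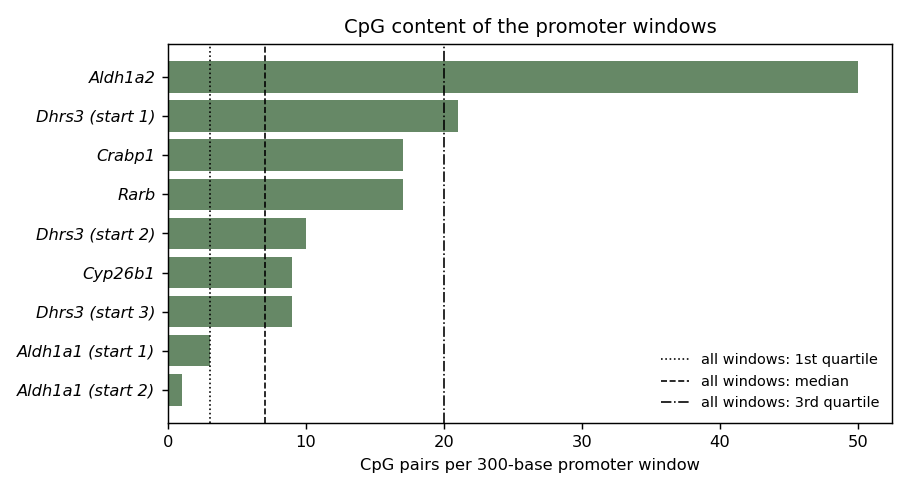
Number of CpG pairs in each 300-base RefSeq promoter window of the matched retinoic acid genes (bars; Aldh1a1 and Dhrs3 have several annotated starts), with vertical lines at the quartiles of all 32851 windows, 3, 7 and 20. Aldh1a2 has 50 CpG pairs and the windows of Aldh1a1 have 3 and 1.

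Over whole windows of 300 bases, as in the plot of CpG content, Aldh1a2 had 50 CpG pairs, and 99.1% of 32851 windows had fewer. The 2 windows of Aldh1a1 had 3 and 1, and 23.3% and 5.43% of windows had fewer. The stretch printed for Aldh1a1 is from the window with 1, and which start these cells used was not examined. The remaining genes lay between Aldh1a1 and Aldh1a2, with 17 for Crabp1 and for Rarb, 9 for Cyp26b1 and 21, 10 and 9 for the 3 starts of Dhrs3. Median and upper quartile over all windows were 7 and 20. Among the 6 genes, the one with the most CpG pairs was the lower isozyme and the one with the fewest was the higher isozyme. The third isozyme, Aldh1a3, had no window. Crabp1 and Dhrs3, with counts between these, were also called higher, and Cyp26b1 and Rarb were not past the threshold. This is a description of 6 genes, and a part of CpG content in the differences was not tested.

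Crabp1 and Crabp2 encode small proteins that bind retinoic acid in the cytosol; Crabp2 is known to deliver it to RARs, and Crabp1 is linked to its turnover. Crabp1 (ENSMUSG00000032291, chr9:54764748-54773110, plus strand) had 7, 2 and 3 reads in control and 82, 41 and 28 reads in induced libraries. The groups did not overlap, and the induced libraries differed widely among themselves. Means were 0.250 ± 0.166 and 3.31 ± 1.88 FPKM (SD, n = 3), with a log2 fold change of 3.67 (SE 0.50). The ratio of pooled reads was 12.8, with a 95% exact interval of 7.11 to 25.3. Without control replicate 1, which had most of the control reads, the log2 fold change was 4.33.

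Crabp2 (ENSMUSG00000004885, chr3:87948666-87953376, plus strand) had 3, 1 and 4 reads in control and 18, 13 and 27 reads in induced libraries. The groups did not overlap, at 0.101 ± 0.0573 and 0.769 ± 0.280 FPKM (SD, n = 3). The log2 fold change was 2.86 (SE 0.52), and the ratio of pooled reads was 7.36, with an interval of 3.50 to 17.9. Both binding protein genes therefore remained far below Aldh1a1 in level.

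Cyp26b1 (ENSMUSG00000063415, chr6:84571414-84593908, minus strand), which encodes a cytochrome that degrades retinoic acid, had 189, 145 and 152 reads in control and 180, 163 and 181 reads in induced libraries. The groups overlapped, at 1.52 ± 0.223 and 1.72 ± 0.105 FPKM (SD, n = 3; log2 fold change 0.17, SE 0.13). Its paralogs hardly gave reads. Cyp26a1 had 1 read in all control libraries together and 0 in induced libraries, and Cyp26c1 had 1 and 6 reads, so Cyp26b1 was the one member of the Cyp26 family with reads enough to be tested.

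Rarb (ENSMUSG00000017491, chr14:16430839-16819156, minus strand) encodes RAR beta, a receptor whose own gene is a textbook direct target of retinoic acid through a direct repeat in its promoter. It had 12, 15 and 13 reads in control and 11, 7 and 6 reads in induced libraries. Every control library lay above every induced library in CPM, but the counts were small and the log2 fold change of -0.67 (SE 0.41) was not past the threshold. Means were 0.127 ± 0.0150 and 0.0801 ± 0.0272 FPKM (SD, n = 3). The counts are uncertain, because 38.4% of the exon bases of Rarb overlap exons of Top2b or Gm48162 on the other strand and the strand setting of the counting is not given. Top2b itself was at 125 CPM in control cells and 102 CPM after induction.

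The promoter of Rarb is shown for the repeat through which RARs are known to act. The motif searched was AGGTCA or AGTTCA or GGGTCA or GGTTCA followed by any of these 4 on the same strand after a spacer of 1, 2 or 5 bases, on both strands of each window. The 250 bases before the RefSeq start at chr14:16575477-16575726 (GRCm38.p6, minus strand, 5′ to 3′) are printed with the match in capitals.
Rarb: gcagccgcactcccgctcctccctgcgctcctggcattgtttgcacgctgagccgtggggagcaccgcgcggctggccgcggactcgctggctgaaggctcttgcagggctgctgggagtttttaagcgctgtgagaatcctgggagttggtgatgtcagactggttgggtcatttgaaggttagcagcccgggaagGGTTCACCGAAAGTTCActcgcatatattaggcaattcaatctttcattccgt
The match, with a spacer of 5 bases, lay at -53 to -37, with the start base counted as 0. It was the one match in the 9 windows of the 6 genes. Over all 32851 windows, 0.0974% held a repeat with a spacer of 5, 0.268% with a spacer of 2, 0.222% with a spacer of 1 and 0.588% any of them. A match is a description of the sequence only.

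Ordered by mean FPKM, control cells had Aldh1a1, Dhrs3, Rdh10, Cyp26b1 and Aldh1a2 in order with no overlap between neighbours. Below these came Aldh1a3, Crabp1, Rarb and Crabp2, and each of these neighbours overlapped. In induced cells Crabp1 moved up to the place below Rdh10 and overlapped it, at 1.83 to 5.43 against 4.23 to 4.69 FPKM. No other neighbours overlapped in induced cells, where Crabp2 lay above Aldh1a3 and Aldh1a2, and Rarb was the lowest.

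The genes with the pattern most like that of Aldh1a1, by Euclidean distance between centred log2 CPM over the 6 libraries, were Vat1l (distance 0.114), Smoc2 (0.138) and Ucp2 (0.166). Vat1l rose from 8.48 ± 0.327 to 48.9 ± 0.966 FPKM (SD, n = 3), and 24 genes lay within a distance of 0.3. For Dhrs3 the closest were Capns1 (0.0694), 2410015M20Rik (0.0713) and Cnpy2 (0.0721), and 1591 genes lay within a distance of 0.3. As Dhrs3 differed little, genes with little difference between libraries also lie within this distance, so the number does not measure a shared pattern.

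The pathway around these genes was read from a list of 72 further retinoid genes. Of these, 46 had enough reads to be tested, and 14 were higher, 17 lower and 15 did not pass the same threshold of edgeR's test, adjusted over every gene tested. The called share was 67.4%, beside 64.8% of all tested genes, and 12 of the 72 had 0 reads in all libraries.

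**Figure D3:**
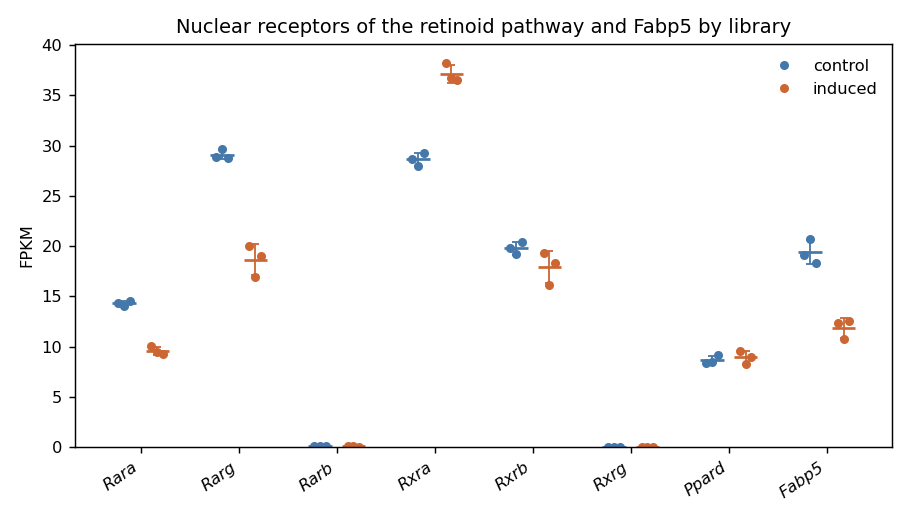
FPKM of the nuclear receptors and of the carrier Fabp5 in 3 control and 3 induced libraries (points), with mean and SD. Rara and Rarg are lower and Rxra is higher in every induced library than in any control library, and Rarb and Rxrg lie at or near 0.

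Among receptors, both RARs that were well expressed fell while 1 RXR rose, as the plot of receptor levels shows. Of the 7 receptor and carrier genes of the list, which leaves out Rarb, 6 were tested, 1 rose and 4 fell. Their called share was 83.3%, beside 64.8% of all tested genes. Rara (RAR alpha) had 14.3, 14.1 and 14.5 FPKM in control and 10.0, 9.44 and 9.22 FPKM in induced libraries. It fell by 0.59 on the log2 scale (SE 0.05, edgeR adjusted p 2.24e-08). Rarg (RAR gamma) had 2451, 2509 and 2469 reads in control and 1608, 1378 and 1546 reads in induced libraries. It fell by 0.65 (SE 0.06, edgeR adjusted p 1.85e-08), and it lies on chromosome 15, where the median log2 fold change of 561 tested genes was -0.24, a shift whose part in the fall of Rarg was not tested. Rarb, at 0.127 FPKM in control, was the least expressed of the 3 RAR genes by far in both groups.

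Rxra (RXR alpha) rose from 28.7 ± 0.650 to 37.2 ± 0.917 FPKM (SD, n = 3, edgeR adjusted p 1.94e-06), a log2 fold change of 0.36 with an SE of 0.05. Rxrb fell by 0.15 on the log2 scale (SE 0.06, edgeR adjusted p 0.0385), a call lost under 9 of 13 alternatives. Rxrg had 0 reads in every library, which allows up to 0.151 to 0.158 CPM. Ppard, a receptor that can also take retinoic acid from the carrier Fabp5, had 8.69 ± 0.399 and 8.94 ± 0.644 FPKM (SD, n = 3; log2 fold change 0.03, edgeR adjusted p 0.675). Fabp5, singled out after its values were seen, fell by 0.72 (SE 0.07), from 19.4 ± 1.21 to 11.9 ± 0.992 FPKM. This was opposite in direction to the values of Crabp1 and Crabp2 and at a higher level than both.

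**Figure D4:**
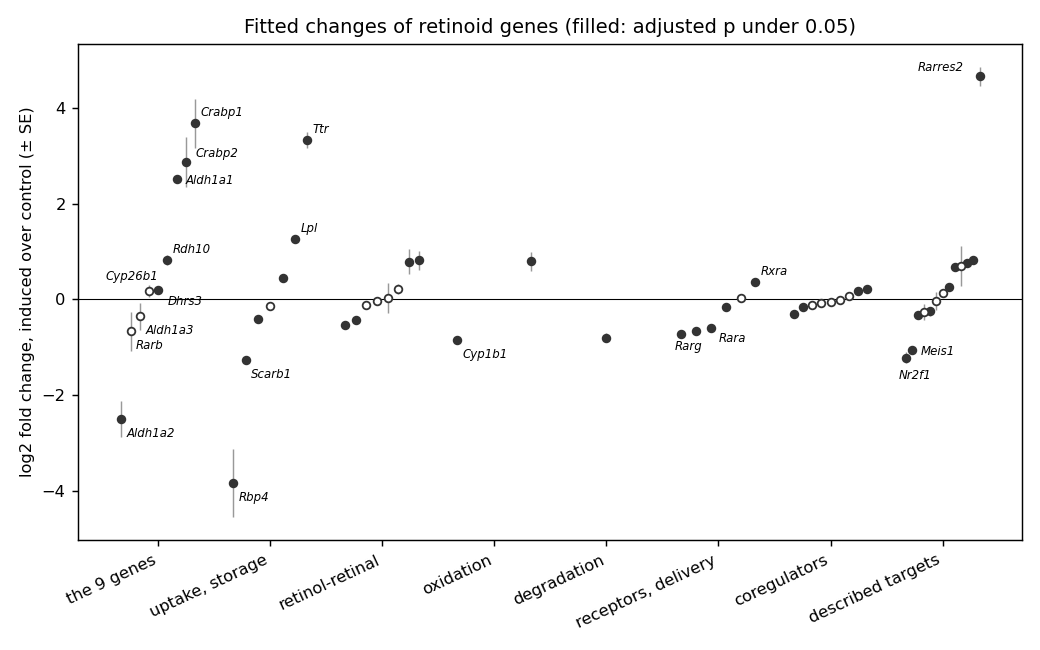
Fitted log2 fold changes, induced over control, with SE, of the 9 genes and of the 46 tested retinoid pathway genes by role; filled points have an adjusted p under 0.05 over all tested genes. Rarres2 (4.66) and Ttr (3.32) are the highest of the pathway genes and Rbp4 (-3.84) is the lowest.

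Of 12 genes for uptake and storage of retinoids, 7 were tested, 3 rose and 3 fell, as the plot of fitted changes shows. Their called share was 85.7%, beside 64.8% of all tested genes. Ttr, the carrier of the retinol-binding protein in blood, rose from 1.30 ± 0.395 to 13.2 ± 1.69 FPKM (SD, n = 3, edgeR adjusted p 6.45e-12), a log2 fold change of 3.32 with an SE of 0.17. Lpl, the lipase that frees lipids and retinyl esters from lipoproteins, rose from 27.3 ± 0.701 to 66.2 ± 4.42 FPKM (log2 fold change 1.26, edgeR adjusted p 1.67e-13). Scarb1, a receptor for lipoproteins and carotenoids, fell from 19.7 ± 0.226 to 8.21 ± 0.444 FPKM (log2 fold change -1.28, edgeR adjusted p 2.76e-13).

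Rbp4, the blood carrier of retinol, was singled out after its values were seen, with 35 reads in control and 2 in induced libraries, a ratio of 0.0580 with a 95% exact interval of 0.00676 to 0.226. Lrat, which esterifies retinol for storage, had 0 reads in all libraries.

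Of 18 further genes that interconvert retinol and retinal, 8 were tested, 2 rose and 2 fell. Their called share was 50%, beside 64.8% of all tested genes. None of the 8 was called at 2-fold or more, and Rdh10 had a higher log2 fold change (0.83) than the 2 that rose, Dhrs9 (0.82, SE 0.20) and Rdh5 (0.79, SE 0.27), by less than their errors. Aldh1a7, a close paralog of Aldh1a1 on the same chromosome, rose from 1.12 ± 0.0407 to 1.95 ± 0.344 FPKM (SD, n = 3, edgeR adjusted p 0.00169), a log2 fold change of 0.80 with an SE of 0.20. Only 1 of 4934 stretches of 100 bases in the Aldh1a1 transcripts was shared with Aldh1a7, counting identical stretches alone. Adding the Aldh1a7 reads to Aldh1a1 moved the log2 ratio of the summed enzymes from 2.50 to 2.49. Aldh1a7 had 138 reads in control and 230 in induced libraries, beside 20596 and 113019 for Aldh1a1. The part of misassigned Aldh1a1 reads in the rise of Aldh1a7 was not tested. Cyp1b1, a cytochrome that can also oxidize retinoids, was the other tested gene for oxidation. It had 11404, 10756 and 10624 reads in control and 5572, 6256 and 5588 reads in induced libraries, with a mean of 107 FPKM in control cells, above Aldh1a1, and 59.6 FPKM in induced cells. It fell by 0.85 on the log2 scale (SE 0.05). Of the further degradation genes, Cyp2s1 was the one with reads enough to be tested, and it fell by 0.80 (SE 0.09), from 5.08 ± 0.292 to 2.93 ± 0.388 FPKM. Rdh5, Dhrs9, Cyp1b1 and Cyp2s1 were named after their values were seen.

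Among 20 genes described as targets of retinoic acid, 13 were tested, 5 rose, 4 fell and 4 were not past the threshold, a called share of 69.2% beside 64.8% of all tested genes. Rarres2, the gene of chemerin, rose from 0.226 ± 0.0805 to 5.82 ± 0.838 FPKM (SD, n = 3, edgeR adjusted p 5.68e-13), a log2 fold change of 4.66 with an SE of 0.20. Its count is uncertain, since 33.6% of its exon bases overlap Lrrc61 on the other strand, itself at 5.14 CPM in control cells and 4.92 CPM after induction. The homeobox gene Meis1 fell by 1.06 on the log2 scale (SE 0.07, edgeR adjusted p 1.03e-10), with 18.3% of its exon bases in overlap with other genes. The orphan receptor gene Nr2f1 fell by 1.22 (SE 0.12, edgeR adjusted p 4.61e-08), with 2.42% of its exon bases in overlap with A830082K12Rik on the other strand. Of 9 coregulators of the receptors, 2 rose and 2 fell, all by less than 2-fold. This was a called share of 44.4%, beside 64.8% of all tested genes.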

How the data were processed

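RNA sequencing was done on 3 control and 3 induced samples. The authors deposited raw read counts per Ensembl gene and library, and FPKM values, in which each count is scaled to the length of its gene and the depth of its library. The submitters' processing notes name HISAT2 2.0.5, featureCounts 1.5.0-p3, DESeq2 1.16.1 and mm10; the annotation and the strand setting are not given in the sources used here. In GENCODE M21, 8 of the 9 genes had the deposited coordinates. The deposited columns of group means, log2 fold changes and p-values, and the Gene Ontology tables, hold the authors' own comparison and were not used.

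Groups were taken from sample titles. The counts went into edgeR 4.0.16 under R 4.3.3. Genes kept by filterByExpr (minimum count 10, minimum total 15) held 99.9% of reads. With TMM scaling, induced and control cells were compared by the two-sided quasi-likelihood test with Benjamini-Hochberg adjustment over all tested genes at 0.05. The biological coefficient of variation was 5.82%. Libraries of a group differed by more than sampling noise (2.56 to 8.91 as chi-square per degree of freedom), and none was merged.

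The 9 genes and all lists were chosen with earlier results of these data known. Named are the 9 genes, the receptors, paralogs of the 9, and pathway genes called with an absolute log2 fold change of at least 1 and 1 FPKM in the higher group. The result of 1 gene of this rule is not reported here. Fabp5, Rbp4, Lrat, Rdh5, Dhrs9, Cyp1b1 and Cyp2s1 were named outside this rule, after their values were seen. Alternatives were median-ratio size factors, library totals alone, DESeq2 1.42.0, no filter, a replicate block, limma 3.58.1 on log2(FPKM + 1) and log2(FPKM + 0.1), and leaving out each library.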

Additional observations from a re-analysis of the deposited data

How the results depend on the processing

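Of 286 values of the 22 genes of the naming rule that were tested under alternatives, 273 kept their direction and their side of the threshold, 11 lost their call and 2 changed sign. The lost calls were 9 of Rxrb and 2 of Dhrs3. The changes of sign were those of Ppard, which was never called, at -0.00701 with library totals alone and -0.0162 to 0.0888 when 1 library was left out, lowest without induced replicate 1; the cause was not tested. With a replicate block, 9063 genes were called in place of 9225, and 6 of the 9 retinoic acid genes and 31 of the pathway genes were called, as without it. Same-numbered libraries showed no shared deviation (correlations -0.0020, -0.02 and 0.03), and 1 of 6 libraries correlated best with its own number. Such values cannot show whether same-numbered samples were set up together. Leaving out 1 library gave 8514 to 9348 called genes, 5 to 6 of the 9 genes, 27 to 31 pathway genes and a log2 ratio of the summed Aldh1a level of 2.49 to 2.51. Library totals alone shifted the median log2 fold change of all genes by -0.04 and the share of called genes that were higher from 50.3% to 46.5%. On log2(FPKM + 1) the values of low genes shrink by construction, to -0.72 for Aldh1a2, 1.71 for Crabp1, 0.67 for Crabp2, -0.06 for Rarb, 2.47 for Rarres2 and 2.63 for Ttr. Among the 9 genes, depth limits Crabp1, Crabp2, Aldh1a2 and Rarb most, with at most 11 reads in every library of their lower group, and Rbp4 had at most 1 in any induced library.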

Other observations

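Beyond the 3 retinoic acid enzymes, the aldehyde dehydrogenase family was read from all 18 other genes whose symbol begins with Aldh, a list set after the data were seen. Of these, 15 had enough reads to be tested, and 6 were higher and 5 lower in induced cells, beside 64.8% of all tested genes called in either direction. Aldh3a1, an enzyme for aromatic and medium-chain aldehydes, fell from 5.76 ± 0.402 to 1.55 ± 0.179 FPKM (SD, n = 3; log2 fold change -1.90). Aldh1l1, a folate enzyme, fell from 4.38 ± 0.366 to 2.38 ± 0.170 FPKM. Aldh9a1 rose from 17.1 ± 0.541 to 30.6 ± 1.64 FPKM and Aldh3a2, the fatty aldehyde dehydrogenase, from 9.75 ± 0.186 to 15.8 ± 0.441 FPKM. In control cells the mitochondrial enzyme Aldh2, at 74.4 ± 2.71 FPKM, was above Aldh1a1 at 69.7 ± 1.05 FPKM, whereas in induced cells Aldh2 had 83.5 ± 5.40 FPKM and Aldh1a1 402 ± 4.59 FPKM.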
